A study of Arabidopsis thaliana with 33 samples.

Results

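The MYB, WRKY, NAC and bZIP factors are 4 large families of plant transcription factors, and 23 gene probes for them, of 23 genes, were measured among 26090 gene probes, 13960 of which carry a gene name. The members were taken by the form of their annotated symbol, a family name followed by a number. This gave 8 WRKY genes, 1 NAC gene and 14 bZIP genes. It gave 0 MYB genes, so nothing is said here of that family, which holds several known regulators of anthers. Genes of these families that are listed under a name of another kind, or by locus only, fall outside the rule.

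Each array compared RNA of an Arabidopsis thaliana mutant, labelled with the dye Cy3 or Cy5, with RNA of wild type in the other dye. The ap3 mutant (4 arrays) was sampled as inflorescence meristem with buds up to early stage 10, and the nzz mutant, also called spl, and the ms1 mutant (4 arrays each) as meristem with buds up to stage 13. AP3 is a homeotic gene for petals and stamens, SPL/NZZ acts at the start of sporogenesis and MS1 in the tapetum, the layer that feeds developing pollen. A further 7 pooled samples of ms1 flowers were each compared with wild type on 3 arrays, 1 per set, where each of the 3 sets was harvested on another day. By the labels, sample 1 held stage 13 flowers and sample 7 held the meristem and the youngest buds. Tissue of 50 plants went into each sample. The labels give no further allele, background strain or treatment for any group, and every comparison is of a mutant with wild type.

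WRKY proteins bind a short DNA element called the W-box and are best known from defence, senescence and nutrient signalling. bZIP proteins bind DNA as dimers held together by a leucine zipper, and their groups serve the unfolded protein response, sugar and amino acid metabolism, metal supply and, for bZIP34 and its partner bZIP18, pollen development. NAC proteins are specific to plants, and NAC014 belongs to the type that is anchored in a membrane until released. All values below are log2 ratios of mutant over wild type, so that a negative value means lower in the mutant. The direction is likely rather than settled, because the deposited values do not state it; were the sign the other way round, lower and higher would be exchanged throughout. As whole buds and flowers were used, fewer cells of a type and less RNA per cell cannot be told apart. Errors are standard errors (SE) from limma, with 4 arrays per mutant and 3 per series sample, and calls were made below 0.05 after Benjamini-Hochberg adjustment across every gene probe tested.

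A few facts about the arrays bear on what follows. Deposited values stop at a log2 ratio of 6.64 in either direction, and a value there has no measured size. The array of series sample 2 in set 2 stood apart, with 17.7% of its values at this limit against a median of 3.74% over the 33 arrays, and with 1328 missing values. Pollen genes in the series also did not follow its labelled order, and whether the numbering runs the other way was not tested. VGD1, which encodes a pollen tube pectin methylesterase, stood between -1.02 and -0.44 in the sample labelled as mature flowers and between -4.10 and -3.61 in the sample labelled as youngest buds. The median of 5 measured mature pollen genes was -0.14 in series sample 1 and -3.34 in series sample 7. Samples are therefore named by their labelled number, and no direction of age is read from them.

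Most of the 23 genes stood close to wild type in all 3 mutants, and 2 genes carried all the calls. BZIP34 fell in nzz and in ms1, and WRKY42 rose in nzz. In ap3, 0 of 23 members were called, where 0.177% of all gene probes were called. At an unadjusted p under 0.05 in limma stood 3 members there, beside 9.67% of all gene probes. In nzz, 2 of 23 were called, against 15.2% of all gene probes, 6.91% lower and 8.32% higher. That is 45.4% of the calls lower, a share that was 69.5% with arrays centred on their medians. In ms1, 1 of 23 was called, against 2.18% of all gene probes, 1.74% lower. Such counts among 23 members are too small to tell their share from that of the array as a whole in either mutant.

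The width of the intervals shows how much room the other genes had. The 95% interval of the log2 ratio lay within 1 in either direction, a change of 2-fold, for 17 of 23 members in ap3, 16 in nzz and 19 in ms1. Among all gene probes the same held for 72.3%, 68.4% and 70.3%. The median log2 ratio of the members was 0.06 in ap3, 0.04 in nzz and -0.00 in ms1, beside 0.02, 0.10 and 0.02 for all gene probes. Their median SE was 0.13 in each mutant.

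**Figure D1:**
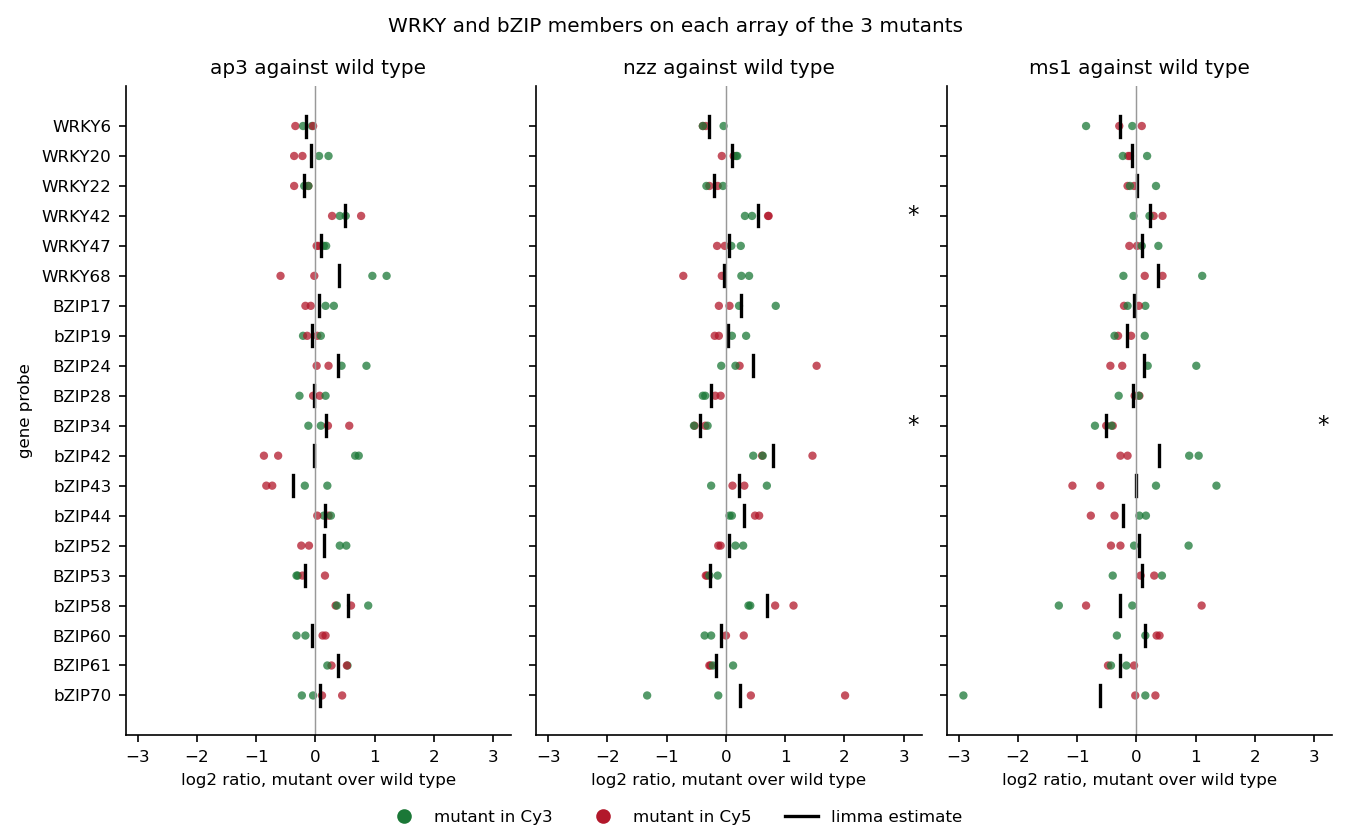
Log2 ratio of mutant over wild type (horizontal axis) for the 20 WRKY and bZIP genes with no value at the limit in the mutants, in ap3, nzz and ms1. Each point is 1 of 4 arrays, coloured by the dye of the mutant RNA, the black bar is the limma estimate, and an asterisk marks an adjusted p under 0.05, which WRKY42 has in nzz and BZIP34 in nzz and ms1.

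Among the bZIP genes, BZIP34 is the member with a known role in pollen, where it is needed for the pollen wall and for germination. Its log2 ratios were -0.35, -0.53, -0.54 and -0.31 on the nzz arrays, and -0.51, -0.70, -0.40 and -0.42 on the ms1 arrays, in order of replicate. On the ap3 arrays they were 0.09, 0.57, 0.21 and -0.12. All 8 arrays of nzz and ms1 lay below all 4 of ap3, and both dye orientations gave the same side. The estimate was -0.43 ± 0.09 in nzz (1.35-fold lower, adjusted p = 0.0167 by limma) and -0.51 ± 0.09 in ms1 (1.42-fold lower, adjusted p = 0.028). In ap3 it was 0.19 ± 0.09 (adjusted p = 0.581). On the same arrays the pollen gene VGD1 read between -4.84 and -3.57 in nzz and between -4.35 and -1.28 in ms1. In ap3 VGD1 read -2.78, -1.54, -1.83 and -3.3, so it was low there while BZIP34 was not. TUA1, a tubulin on the same list of pollen genes, stood nearer to wild type than BZIP34, at -0.20 in nzz and -0.27 in ms1, and was not called.

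Both calls of BZIP34 sit near the threshold. In nzz the adjusted p was 0.0739, 0.0868 and 0.0577 without replicates 1, 2 and 3 in turn, and in ms1 it was 0.112, 0.129 and 0.113, while the estimates stayed between -0.52 and -0.37. Leaving out replicate 4 kept both calls. A replicate block ended both (adjusted p = 0.0601 in nzz and 0.122 in ms1), and so did reading the values as dye ratios, which gave 0.0070 in nzz and -0.05 in ms1. Read as mutant over wild type, nzz arrays of opposite dye correlated at 0.50 to 0.57 over 16600 gene probes. Those of ms1 did so at 0.10 to 0.27 and those of ap3 at -0.11 to 0.06. The difference of BZIP34 between ms1 and nzz was -0.08, with a 95% interval from -0.37 to 0.22, and was not called (adjusted p = 0.818). The difference of nzz from ap3, which was chosen after the values were seen, was -0.62 ± 0.13 (adjusted p = 0.0453, beside 2.9% of all gene probes called). It was not called when any 1 of these 8 arrays was left out, with adjusted p between 0.0539 and 0.132. The difference of ms1 from ap3 was -0.69 (adjusted p = 0.0785). The ap3 tissue ended at younger buds than the other tissues, so that mutant and tissue cannot be told apart in these differences.

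In the ms1 series BZIP34 was lowest in the samples labelled 6 and 7. Its values in sets 1, 2 and 3 were -0.02, -0.75 and -0.29 in sample 5, -0.62, -1.14 and -0.38 in sample 6, and -0.45, -1.12 and -0.95 in sample 7. All 9 arrays of these samples were below 0, against 4 of 12 arrays of samples 1 to 4, in a split chosen after the values were seen. The 9 arrays come from 3 sets, and arrays of 1 set are not independent. The array of sample 2 in set 2 read 6.64, at the limit, and this value widened the error of BZIP34 in every series sample. With it in the fit, the estimates were -0.61 in sample 6 and -0.74 in sample 7, both with an SE of 0.85, and neither was called. With values at the limit left out, sample 6 stood at -0.78 ± 0.18 (adjusted p = 0.0424) and sample 7 at -0.91 ± 0.18 (adjusted p = 0.0196). In that fit 1.56% and 1.27% of all gene probes were called lower in these 2 samples. When the array of sample 2 in set 2 was left out instead, sample 7 was again called (adjusted p = 0.0329) and sample 6 was not. Of 5 mature pollen genes, 0, 1, 1, 2, 3, 3 and 3 were called lower in samples 1 to 7. In sample 4, VGD1 read -5.03, -2.29 and -4.23 in sets 1, 2 and 3 while BZIP34 read 0.16, 0.07 and -0.27, so the 2 genes were not low in all the same samples. Whether BZIP34 moved with the amount of pollen in the tissue was not tested.

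BZIP61 is the closest relative of BZIP34 within the bZIP family, and the pair showed like signs in the 3 mutants. BZIP61 read 0.54, 0.27, 0.53 and 0.20 on the ap3 arrays and -0.48, -0.17, -0.04 and -0.43 on the ms1 arrays. On the nzz arrays it read -0.28, -0.26, -0.22 and 0.12. The ap3 arrays lay above 0 and above every array of nzz and ms1. The estimates were 0.38 ± 0.10 in ap3 (adjusted p = 0.235), -0.16 ± 0.10 in nzz (adjusted p = 0.326) and -0.28 ± 0.10 in ms1 (adjusted p = 0.254), so none was called. In series sample 7 its 3 arrays read -0.58, -0.73 and -0.49, with an estimate of -0.61 ± 0.29 (adjusted p = 0.793). In sample 6, by contrast, the arrays disagreed, at 1.07, -0.55 and -0.31. The partner of bZIP34 in pollen, bZIP18, is listed only by its locus AT2G40620 and so is no member. Its ratio was -0.16 in nzz, -0.06 in ms1 and -0.37 in series sample 7, with no call in any of them.

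**Figure D2:**
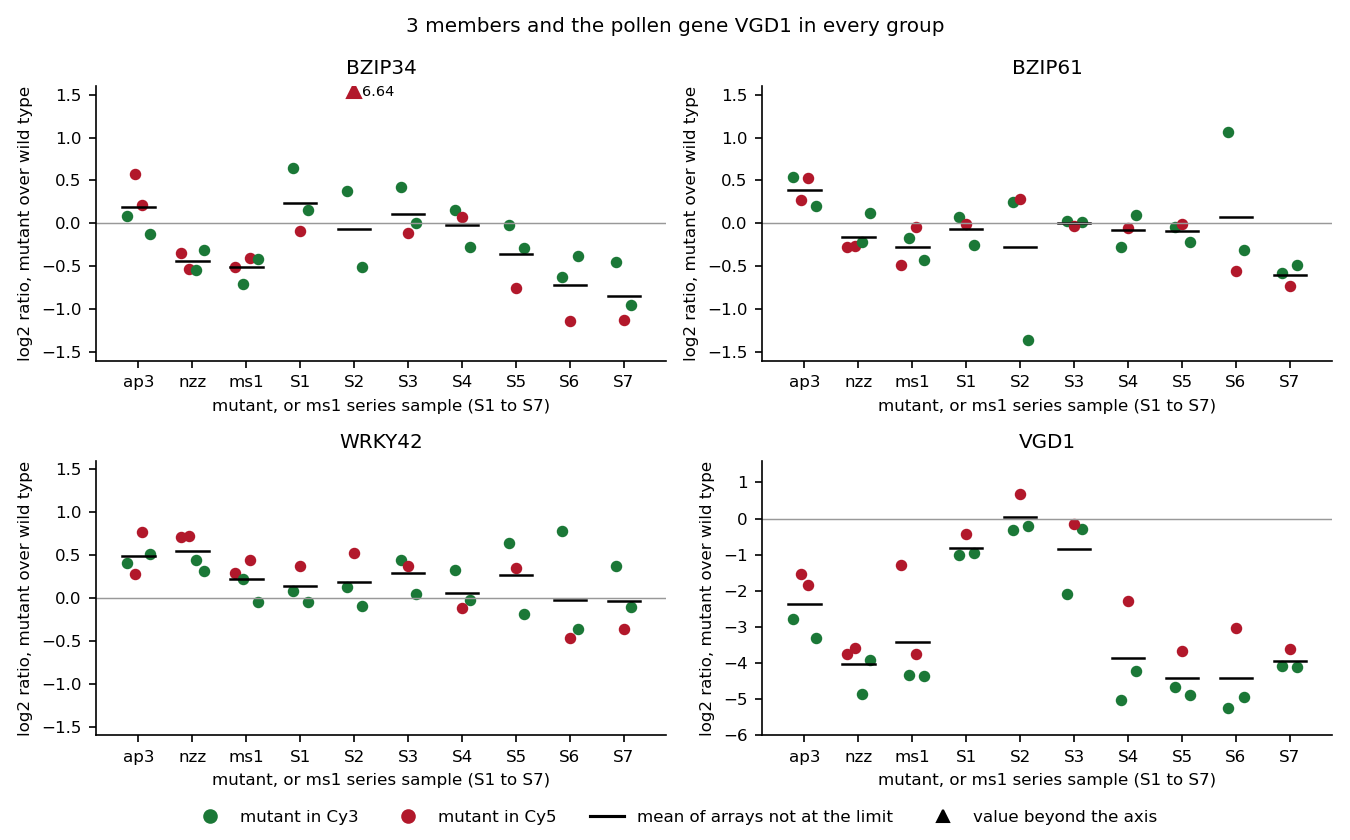
Log2 ratio of mutant over wild type for BZIP34, BZIP61, WRKY42 and the pollen gene VGD1 in ap3, nzz and ms1 and in ms1 series samples 1 to 7 (S1 to S7). Points are single arrays coloured by the dye of the mutant RNA, bars are means of the arrays not at the limit, and the triangle is the BZIP34 value of 6.64 in sample 2 of set 2; BZIP34 is below 0 on every array of samples 5 to 7, whereas VGD1 is below -2 on every array of samples 4 to 7.

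WRKY42 belongs to the subgroup of WRKY6 and WRKY47, and both it and WRKY6 are known to act in phosphate supply and leaf senescence. Its ratios were 0.71, 0.72, 0.44 and 0.32 on the nzz arrays, all above 0. On the ap3 arrays they were 0.41, 0.28, 0.77 and 0.51, and on the ms1 arrays 0.29, 0.22, 0.44 and -0.05. Thus 11 of 12 mutant arrays were above 0, and nzz and ap3 overlapped. The estimate was 0.55 ± 0.09 in nzz (1.46-fold higher, adjusted p = 0.00452). In ap3 it was 0.49 ± 0.09 (adjusted p = 0.0942), the lowest adjusted p of any member there, and after the arrays were scaled to one spread it was called at 0.63 (adjusted p = 0.0355). In ms1 it was 0.23 ± 0.09 (adjusted p = 0.279). The difference of ms1 from nzz was -0.32, with a 95% interval from -0.60 to -0.04, and did not pass over all probes (adjusted p = 0.287). In that contrast 0 of 23 members were called, while 0.685% of all gene probes were called. At an unadjusted p under 0.05 in limma it had 2 members, beside 14.2% of all gene probes. The nzz call of WRKY42 held without each nzz replicate in turn and when replicates were blocked (adjusted p = 0.0238). With values read as dye ratios it turned to -0.16 and was not called.

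The other 2 genes of that subgroup were not called. WRKY6 read -0.39, -0.34, -0.39 and -0.04 in nzz, with an estimate of -0.29 ± 0.14 (adjusted p = 0.196), and it had the lowest estimate of the WRKY genes in ms1, at -0.28 ± 0.14 (adjusted p = 0.392). WRKY47 was the most tightly measured member, with an SE of 0.06, and its estimates of 0.10, 0.04 and 0.09 in ap3, nzz and ms1 lay close to wild type. Its 95% interval in nzz ran from -0.09 to 0.18.

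WRKY22 and WRKY29 act in immune signalling downstream of a MAP kinase cascade. WRKY22 was slightly below 0 on all 8 arrays of ap3 and nzz, between -0.36 and -0.05, with an estimate of -0.20 ± 0.08 in each (adjusted p = 0.492 and 0.137). In ms1 it was 0.01. WRKY20 lay between -0.08 and 0.11 in the 3 mutants, and WRKY68 between -0.03 and 0.39, in both genes without a call. For WRKY29 the nzz arrays read 2.28, -0.49, -6.64 and -6.64, and the 2 values at the limit were on the 2 arrays with the mutant in Cy3. Its estimate of -2.88 ± 0.93 was the lowest of any member and was not called (adjusted p = 0.0689). Without nzz replicate 1 it was -4.14 and called (adjusted p = 0.0238), a call that rests on values at the limit. In ap3 the WRKY29 estimate of -0.80 ± 0.93 was the lowest of the WRKY genes and was not called (adjusted p = 0.900 by limma).

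WRKY41, which has been tied to seed dormancy and defence, and NAC014 gave no usable size in the mutants. WRKY41 had 7 of its 12 mutant values at the limit and NAC014 had 5. On the nzz arrays WRKY41 read 1.53, 6.64, -6.64 and -6.64, and NAC014 read 6.64, 6.64, 2.92 and -6.64. The WRKY41 estimates were 1.55 ± 1.42 in ap3, the highest of the WRKY genes there, -1.28 ± 1.42 in nzz and 1.92 ± 1.42 in ms1, again the highest. Those of NAC014 were -0.65, 2.39 and 0.63, each with an SE of 1.82, so that the NAC family rests on this 1 probe. Over all members, 39 of 754 values were at the limit, 33 of them in NAC014, WRKY29 and WRKY41. Of the other 6, 4 were on the array of series sample 2 in set 2, and bZIP19 and bZIP70 had 1 each on other series arrays. Of the 39, 36 pointed to the side of the dye, higher with the mutant in Cy5 and lower with it in Cy3. The dye term of WRKY29 and WRKY41 passed in the mutants but not in the series, and that of NAC014 in the series but not in the mutants.

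**Figure D3:**
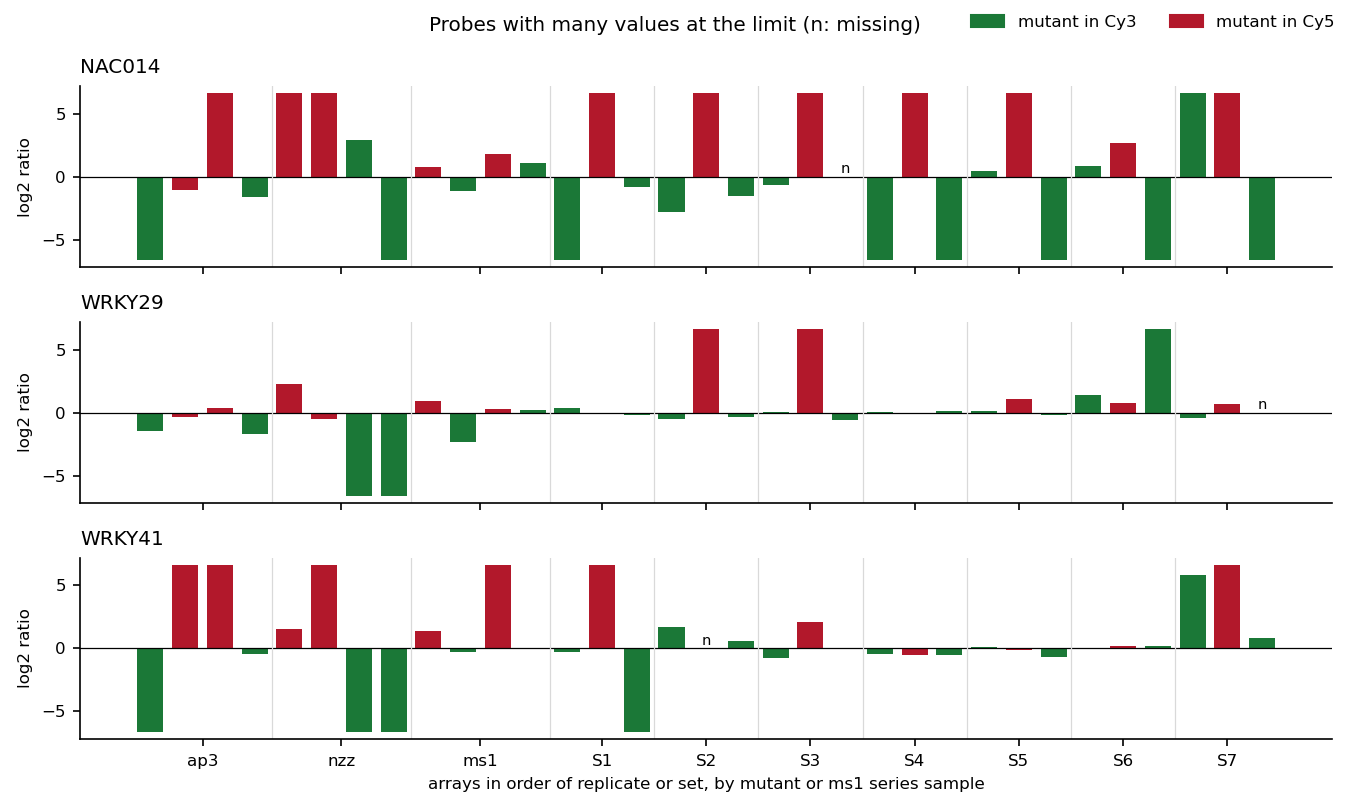
Log2 ratio of mutant over wild type for NAC014, WRKY29 and WRKY41 on each of the 33 arrays (1 bar per array, ordered by mutant or ms1 series sample S1 to S7 and then by replicate or set; n marks a missing value). Bars are coloured by the dye of the mutant RNA, and of the 33 values at the limit of 6.64 in these genes most point up with the mutant in Cy5 and down with it in Cy3.

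The remaining bZIP genes fall into groups with known tasks, and none was called in a mutant. BZIP17, BZIP28 and BZIP60 drive the unfolded protein response, the first 2 as proteins released from the membrane of the endoplasmic reticulum and BZIP60 after its transcript is spliced. BZIP28 read -0.18, -0.09, -0.39 and -0.35 in nzz, all below 0, with an estimate of -0.25 ± 0.08 (adjusted p = 0.0687); with arrays centred on their medians it was -0.33 and was called (adjusted p = 0.0293). BZIP17 stood at 0.25 ± 0.11 in nzz (adjusted p = 0.173), on the other side of 0. BZIP60 stood at -0.05, -0.08 and 0.14 in ap3, nzz and ms1, and its dye term passed the threshold. The 3 genes therefore gave no common direction in nzz.

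bZIP44 and BZIP53 belong to the small bZIPs whose translation responds to sucrose and which act on amino acid metabolism. bZIP44 read 0.49, 0.56, 0.06 and 0.10 in nzz and -0.77, 0.16, -0.37 and 0.05 in ms1, so the mutants overlapped. Its difference of ms1 from nzz was -0.53 ± 0.21 (adjusted p = 0.300). BZIP53 was below 0 on all 4 nzz arrays, between -0.34 and -0.14, with an estimate of -0.27 ± 0.13 (adjusted p = 0.188), and stood at 0.10 in ms1. BZIP24, known from the salt response, was at 0.38, 0.46 and 0.13 in the 3 mutants, and bZIP19, a factor of the zinc deficiency response, at -0.06, 0.03 and -0.16. bZIP52 was at 0.14, 0.06 and 0.03, and is 1 of 4 members whose dye term passed in the mutants, with WRKY29, WRKY41 and BZIP60. Among all gene probes 19.9% had such a dye term.

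Apart from BZIP34, the lowest in nzz, the extremes of the bZIP family were genes with wider spreads between arrays. bZIP58 had the highest estimate in ap3, 0.55 ± 0.31 (adjusted p = 0.635), from 0.89, 0.34, 0.60 and 0.36. It was also above 0 on every nzz array, at 0.83, 1.14, 0.41 and 0.38 (0.69 ± 0.31, adjusted p = 0.168), while 3 of 4 ms1 arrays were below 0. bZIP42 had the highest estimate in nzz, 0.79 ± 0.27 (adjusted p = 0.0854), from 0.61, 1.46, 0.62 and 0.46. It was also the highest in ms1, at 0.38 ± 0.27 (adjusted p = 0.551), where the 2 arrays with the mutant in Cy5 were below 0 and the 2 in Cy3 above. bZIP43 was the lowest in ap3, at -0.38 ± 0.27 (adjusted p = 0.722). bZIP70 was the lowest in ms1, at -0.62 ± 0.47 (adjusted p = 0.577), through 1 array at -2.92; without that array, replicate 2, it stood at 0.00.

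In the ms1 series none of the 23 genes was called in any of the 7 samples by limma with all arrays in the fit. The numbers at an unadjusted p under 0.05 were 1, 4, 1, 2, 2, 2 and 2 in samples 1 to 7. Of all gene probes 3.51%, 15.2%, 9.18%, 5.05%, 6.88%, 10.1% and 6.51% were under that threshold. The 4 in sample 2 were WRKY6, WRKY68, BZIP24 and BZIP34, each at 6.64, the limit, on the set 2 array. bZIP70 in sample 1 and bZIP19 in sample 3 each had 1 array at -6.64, also the limit. The shares of all gene probes called in samples 1 to 7 were 0.00767%, 0.53%, 1.53%, 1.27%, 1.34%, 0.882% and 0.568%. A limma F test of any difference among the 7 samples called 0 members (lowest adjusted p = 0.888) and 1.35% of all gene probes. At an unadjusted p under 0.05 it had 0 members and 5.9% of all gene probes. The median SE of the members was 0.33 in series sample 7, beside 0.27 for all gene probes, and 10 of 23 members had an interval within 2-fold there. With the collection set as a block, 0 members were called in any sample or in the test among samples, although more gene probes were called in all, 240 against 148 in sample 7, 455 against 230 in sample 6, 544 against 350 in sample 5 and 212 against 138 in sample 2.

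Some members leaned one way in neighbouring series samples without passing. BZIP60 read 0.00, 0.78 and 0.28 in sample 4 and 0.26, 0.70 and 0.28 in sample 5, with none below 0, at 0.43 ± 0.16 and 0.48 ± 0.16 (adjusted p = 0.596 and 0.312). bZIP52 read 0.27, -1.95 and -0.35 in sample 7 (-0.85 ± 0.27, adjusted p = 0.370), and its set 2 values were below 0 in all 7 samples. bZIP44 read 0.30, -1.48 and -0.58 in sample 6 (-0.64 ± 0.30, adjusted p = 0.480). In both of these genes the set 2 array, the one with the mutant in Cy5, was the lowest. Set 2 and the dye cannot be told apart in the series.

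The collection set, rather than the sample, separated several members. WRKY22 was below 0 in set 1 in all 7 samples, between -0.87 and -0.42, and above 0 in set 3 in all 7, between 0.16 and 0.49. Both sets had the mutant in Cy3, so the dye does not differ between them. Each set is 1 day of collection, so a p-value between sets measures the spread among samples, not among days. The difference of set 1 from set 3, chosen after the values were seen, was -1.06 ± 0.12 for WRKY22 (adjusted p = 2.06e-05 by limma, 7 arrays per set, 21 arrays in the fit). For bZIP58 it was -1.42 ± 0.24 (adjusted p = 0.00055), and for BZIP53 -0.75 ± 0.12 (adjusted p = 0.000343). In the other direction stood bZIP44 at 0.69 ± 0.20 (adjusted p = 0.0229), bZIP52 at 0.57 ± 0.20 (adjusted p = 0.0461) and WRKY42 at 0.50 ± 0.17 (adjusted p = 0.0391). Thus 6 of 23 members were called between these sets, and so were 26.1% of all gene probes, so that the members' share was that of the array as a whole. Leaving out series sample 3 of set 1, sample 5 of set 1 or sample 3 of set 3 gave 3 calls each time.

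**Figure D4:**
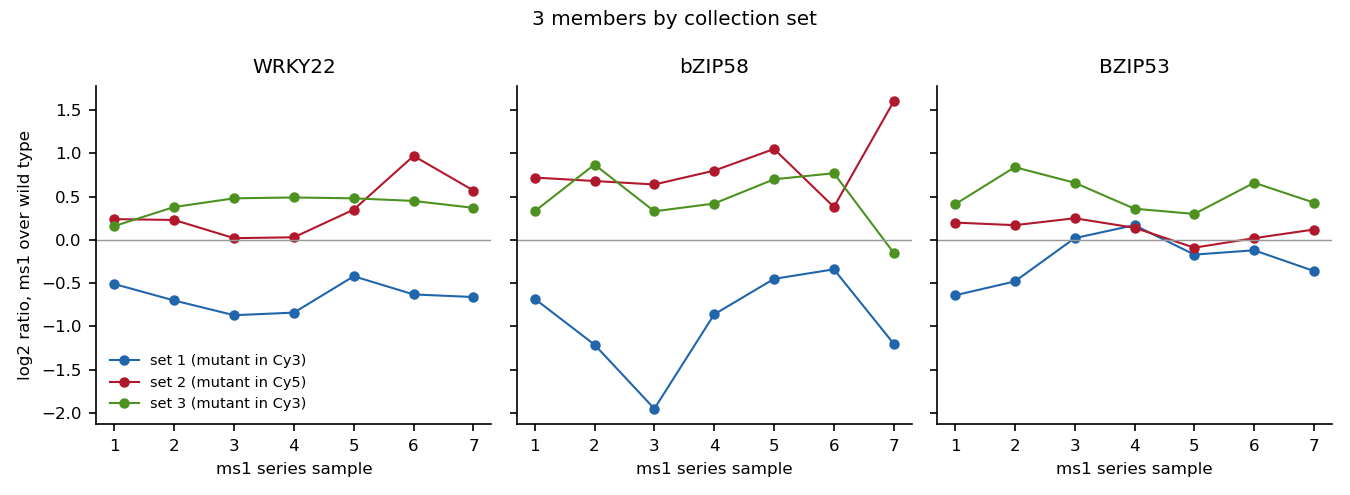
Log2 ratio of ms1 over wild type for WRKY22, bZIP58 and BZIP53 in series samples 1 to 7 (horizontal axis), with 1 line per collection set and no replicate within a set. Sets 1 and 3 share the dye orientation, and for WRKY22 all set 1 values lie between -0.87 and -0.42 while all set 3 values lie between 0.16 and 0.49.

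Of the genes of these pathways on other lists, few had a named probe, and genes on unnamed probes are not analysed here. Of 5 tapetal regulators, 2 were called lower in nzz, where 6.91% of all gene probes were. Among them was AMS, a bHLH factor of the tapetum, at -5.32 ± 0.61 (adjusted p = 0.000867 by limma). EMS1, a receptor kinase that specifies tapetal cells, was the other. Of the glucosinolate genes, which MYB factors are known to control, 1 of 11 listed had a named probe, BCAT4, an aminotransferase of methionine chain elongation. BCAT4 was higher in nzz (0.95 ± 0.26, adjusted p = 0.0409 by limma) and in ms1 (1.39 ± 0.26, adjusted p = 0.0305). In ap3 it stood at -0.33 and was not called. Among all gene probes 8.32% were called higher in nzz, and 2.18% were called in ms1 in either direction. Of 10 listed flavonoid genes, 3 had a named probe. Of these, 0 were called in ap3, nzz or ms1, and 1 was called lower in series sample 2. The 1 defence gene with a named probe, PDF1.2, and the 1 gene of the list of bZIP sugar and amino acid targets, AKINBETA1, had no call in ap3, nzz, ms1 or a series sample. Of 10 genes of the secondary wall, targets of NAC and MYB factors, 0 had a named probe.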

How the data were processed

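The authors normalized the 33 two-colour arrays and deposited 1 table of what was read here as log10 ratios, a base inferred from their limit of 2 in either direction. These were converted to log2 and turned to mutant over wild type, the deposited sign being read as wild type over mutant because ms1 lacks viable pollen and pollen genes lay on that side. The sources used here do not name the scanner software or the steps of normalization. Of the lines, 450 were controls and were left out. Groups and dyes came from the labels. Names came from the platform annotation, updated by gene identifier through RefSeq (assembly TAIR10.1); both gave the same 23 members.

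The 12 mutant arrays and the 21 series arrays were fitted apart with limma 3.58.1 in R 4.3.3, with 1 coefficient per group and a dye term per probe, which in the series cannot be told apart from set 2. A probe needed 3 of 4 values in a mutant or 2 of 3 in a series sample. The number of arrays limits the precision. The labels speak of independent samples for at least 3 arrays of a group; where arrays share tissue, p-values measure technical spread in part. Per the labels the sets are days of collection, and residuals of arrays of 1 set correlated (median r = 0.45, from -0.49 to 0.74 over 63 pairs). Equal replicate numbers of the mutants showed little pairing (median 0.06, from -0.21 to 0.32 over 12 pairs). For different numbers the median was -0.01 over 36 pairs.

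Every member is named. Estimates are given for called members, the lowest and highest of each family in each mutant, and those known from pollen. Values of single arrays are given for only part of these. Members and lists were chosen with earlier results of these data known. The code was tested on simulated data. Alternatives were no dye term, a replicate block, centred or scaled arrays, values at the limit left out, values read as dye ratios, platform symbols and each array left out.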

Additional observations from a re-analysis of the deposited data

Results flagged for a closer look

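In 4 of 69 sets of 4 arrays, 1 array lay far from the other 3 by Dixon's test, which chance gives in about 1 of 20. WRKY6 in nzz had an array at -0.04, with the others between -0.39 and -0.34. bZIP42 in nzz had one at 1.46, with the others between 0.46 and 0.62. BZIP61 in nzz had one at 0.12, with the others between -0.28 and -0.22. bZIP70 in ms1 had one at -2.92, with the others between -0.02 and 0.32.

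BZIP34 differed between nzz and ap3, each against its own wild type, by -0.62 on the log2 scale in a contrast chosen after the values were seen (adjusted p = 0.0453 by limma, lost when any 1 of the 8 arrays is left out). The tissues of these mutants also differ in the age of the oldest buds.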

How the results depend on the processing

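Members called were 2 in nzz and 1 in ms1, against 1 and 0 under a replicate block (BZIP34 adjusted p = 0.0601 and 0.122 by limma). With values read as dye ratios they were 1 and 0, and the 1 in nzz was neither BZIP34 nor WRKY42. Leaving out 1 array at a time gave 1 to 2 in nzz and 0 to 1 in ms1. In ap3, 1 member (WRKY42) was called after scaling the arrays to one spread. In series samples 6 and 7, 1 member (BZIP34) was called with values at the limit left out, and in sample 7 also 1 without the array of sample 2 in set 2. Read as dye ratios, 3 values turned: BZIP34 to 0.0070 in nzz and to 0.21 between nzz and ap3, and WRKY42 to -0.16 in nzz, none called. As mutant over wild type, arrays of opposite dye correlated at 0.50 to 0.57 in nzz, 0.10 to 0.27 in ms1 and -0.11 to 0.06 in ap3. In the series this ran from -0.61 in sample 1 to 0.56 in sample 4, with -0.11 to 0.27 in sample 6 and -0.21 to 0.34 in sample 7. Of the alternatives to the named members' values, 256 kept direction and side of the threshold, 26 values moved, 20 lost a call and 6 gained one. Over all gene probes, ap3 gave 46 calls, against 6 with the block, 24 without the dye term, 252 after scaling and 514 as dye ratios. For ms1 there were 567, against 273 with the block and 729 as dye ratios. For nzz there were 3967, against 2403 without the dye term and 742 as dye ratios. As dye ratios, series sample 1 gave 642 calls against 2 and sample 2 gave 140 against 138, while samples 3 to 7 gave fewer. In nzz, 45.4% of calls were lower, against 69.5% after centring. The cause of these changes was not tested.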

Other observations

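A search by gene synonym, chosen after it was seen that symbols miss some genes, found 9 more probes of these families. Among them 1 was called in nzz, beside 15.2% of all gene probes, and 1 in series sample 4, beside 1.27%. Both adjusted p-values lay just under 0.05, and no alternative fit is given for them. EEL (bZIP12), a seed factor that counters ABI5, was lower in nzz on all 4 arrays, at -0.22, -0.47, -0.31 and -0.62 (-0.40 ± 0.12, adjusted p = 0.0471 by limma). ZAP1 (WRKY1) was lower in series sample 4, at -0.13, -0.72 and -0.51 in sets 1 to 3 (-0.50 ± 0.11, adjusted p = 0.04997). FD (bZIP14), the partner of FT in flowering, stood between -0.20 and 0.05 in the 3 mutants, with no call. The other 6, bZIP18, bZIP29, bZIP30, bZIP31, bZIP33 and bZIP69, are listed by locus only and were not called in ap3, nzz or ms1.

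The difference between collection sets 1 and 3 of the ms1 series was far larger in AKINBETA1, a beta subunit of the SnRK1 kinase complex that is listed here with the bZIP sugar and amino acid genes, than in any called member. Its ratio of ms1 over wild type was 10.7-fold lower in set 1 than in set 3 (-3.42 ± 0.19 on the log2 scale, adjusted p = 1.42e-07 by limma), in a contrast chosen after the values were seen. Each set is 1 day of collection, so this p-value does not measure the spread among days. The cause of this difference was not tested.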
